A study of Homo sapiens with 10 samples.

Results

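The stretch of 28S rRNA from position 2700 to position 2899 was described here by its RibOxi-seq counts. It was chosen by position alone and no measured value was used. It holds 200 of the 6939 positions counted in 18S and 28S, and 7 of the 106 known 2′-O-methylated sites in the study's list. RibOxi-seq was run on PA1 cells, an established human line from an ovarian teratoma, and no genetic change or drug is named for any sample. RNA was fragmented with Benzonase, a nuclease that leaves random ends, and oxidized libraries were then taken through periodate oxidation and β-elimination before ligation of the 3′-linker. Control libraries came from fragments that were ligated without oxidation. The NextSeq experiment held 3 libraries of each kind, and a pilot on the MiSeq held 2 of each kind. Replicates 1 and 2 of both NextSeq groups came from cells at passage 6, replicate 3 of both from passage 4, and all MiSeq libraries from passage 7. Only rRNA was counted, so the cell type could not be checked against marker genes.

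In human rRNA, the methyl group on the 2′-oxygen is added by fibrillarin, the enzyme of the box C/D ribonucleoproteins. Each box C/D snoRNA carries a stretch complementary to its target, and the base that becomes methylated is the one paired with a fixed place just before the box D or D′ motif. A methylated base resists periodate when it lies at a 3′-end, so such ends can still be ligated after oxidation. The bond on the 3′ side of a methylated base also resists cleavage, so a control library can show few ends there.

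The whole stretch is shown so that the spacing of the 7 sites can be seen. It reads from the plus strand of chrUn_gl000220:116048-116247 in hg19 (GRCh37), within the 28S gene, with the 7 known sites in capitals and T for U. An identical second copy lies at positions 160020 to 160219 of the same contig, and ends in either copy cannot be told apart.
28S 2700 to 2899: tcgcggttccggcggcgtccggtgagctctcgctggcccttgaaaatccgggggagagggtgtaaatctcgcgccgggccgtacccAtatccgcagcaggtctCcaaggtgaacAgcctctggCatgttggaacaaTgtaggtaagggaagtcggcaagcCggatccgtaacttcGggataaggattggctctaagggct

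The first 86 positions hold no known site, and the 7 sites lie in the 90 positions from A2786 to G2875. The gaps between neighbouring sites were 17, 11, 9, 13, 24 and 15 nt. The listed base and the reference base were the same at 7 of 7 sites. A2786 is assigned to the snoRNA HBII-420 (SNORD99), C2803 to U55 (SNORD55), A2814 and C2823 to U95 (SNORD95), U2836 to U34 (SNORD34), and C2860 and G2875 to U50. The complementary stretches are shown because they name the base each guide marks, and were found by matching each snoRNA of the hg19 gene annotation to the rRNA around its site without allowing mismatches or G-U pairs. The capital marks the snoRNA base that pairs with the site.
SNORD99 for A2786: ugcggauaUggg
SNORD55 for C2803: accuugGaga
SNORD95 for A2814: ccagaggcUguu
SNORD95 for C2823: ccaacauGcca
SNORD34 for U2836: uaccuacAuuguu
These stretches paired over 12, 10, 12, 11 and 13 bases. In 4 of them the capital base lay 5 bases before the letters CUGA, the box D or D′ motif. In SNORD34 it lay 5 bases before the letters UUGA and 30 before the next CUGA. SNORD99 lies at chr1:28905261-28905334 (minus strand), SNORD55 at chr1:45241536-45241615 (plus strand), SNORD95 at chr5:180670312-180670379 (minus strand) and SNORD34 at chr19:49994161-49994231 (plus strand). U95 thus carries both of its guide stretches in 1 RNA of 68 bases, for targets 9 nt apart. No stretch is shown for U50.

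Each count is the number of sense alignments whose 3′-end lay at a position. Library totals were 72458614, 80964624 and 75495510 counts in the NextSeq controls and 13237673, 12293410 and 13694386 in the oxidized NextSeq libraries. The MiSeq controls held 44061905 and 30392418 counts, and the oxidized MiSeq libraries 1568883 and 1353768. The control totals of both experiments exceed the reads that the study gives per control library, so a total is not a sequencing depth. Low counts gathered at 50, with 12 to 33 positions of the window at exactly 50 in each oxidized library and 0 at 40 to 49. Another 4 to 18 positions per oxidized library held 1 to 39 counts, which are not steps of 50, and the cause was not tested. A count may thus not stand for a read. The edgeR and DESeq2 fits below nonetheless took the counts as given, so their SE and p-values treat each count as a read. Counts divided by 50 and rounded were an alternative in edgeR. A limit of 150 counts per library, or 3 such steps, was therefore used where a group was at 0. This limit covers counting error only. No label says that replicates came from separate cultures, so the tests below measure only the spread between these libraries, which may be technical.

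Before the results, 1 library has to be set apart. NextSeq control replicate 3, from passage 4, differed from control replicates 1 and 2 within the window. At its 193 positions that are not known sites, A and U ends made up 49.7% of the counts in control replicate 3, 18.1% in replicate 1 and 18.02% in replicate 2. A and U are 40.4% of these positions. In the MiSeq controls the share was 34.7% and 35.4%. The rank correlation of the counts across these positions was 0.99 between control replicates 1 and 2 and 0.28 between each of them and replicate 3, whereas replicate 3 and the MiSeq controls had 0.71. These correlations describe positions of the same RNA, which are not independent. The NextSeq fold change of each site is given with and without control replicate 3. Control replicates 1 and 2 differed little beyond sampling. The p-values and numbers of calls without replicate 3 thus rest on little spread between controls.

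All 7 known sites stood above the controls in both experiments. At every site the lowest oxidized library exceeded the highest control library in CPM (the count scaled to 1e+06 counts of that library), as did 1.65% of all tested positions on the NextSeq and 14.4% on the MiSeq. On the NextSeq the smallest such margin was 5.58-fold, at A2786. The known sites held 93.7%, 93.6% and 94.1% of the window's counts in the oxidized NextSeq libraries against 0.291%, 0.293% and 0.427% in the controls. In the MiSeq libraries they held 32.2% and 31.2% against 0.0230% and 0.0209%. The difference was 93.5 percentage points in the NextSeq libraries (exact permutation test, two-sided, p = 0.1) and 31.7 in the MiSeq libraries (p = 0.333, also exact). These are the smallest p-values that 3 against 3 and 2 against 2 libraries allow.

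**Figure D1:**
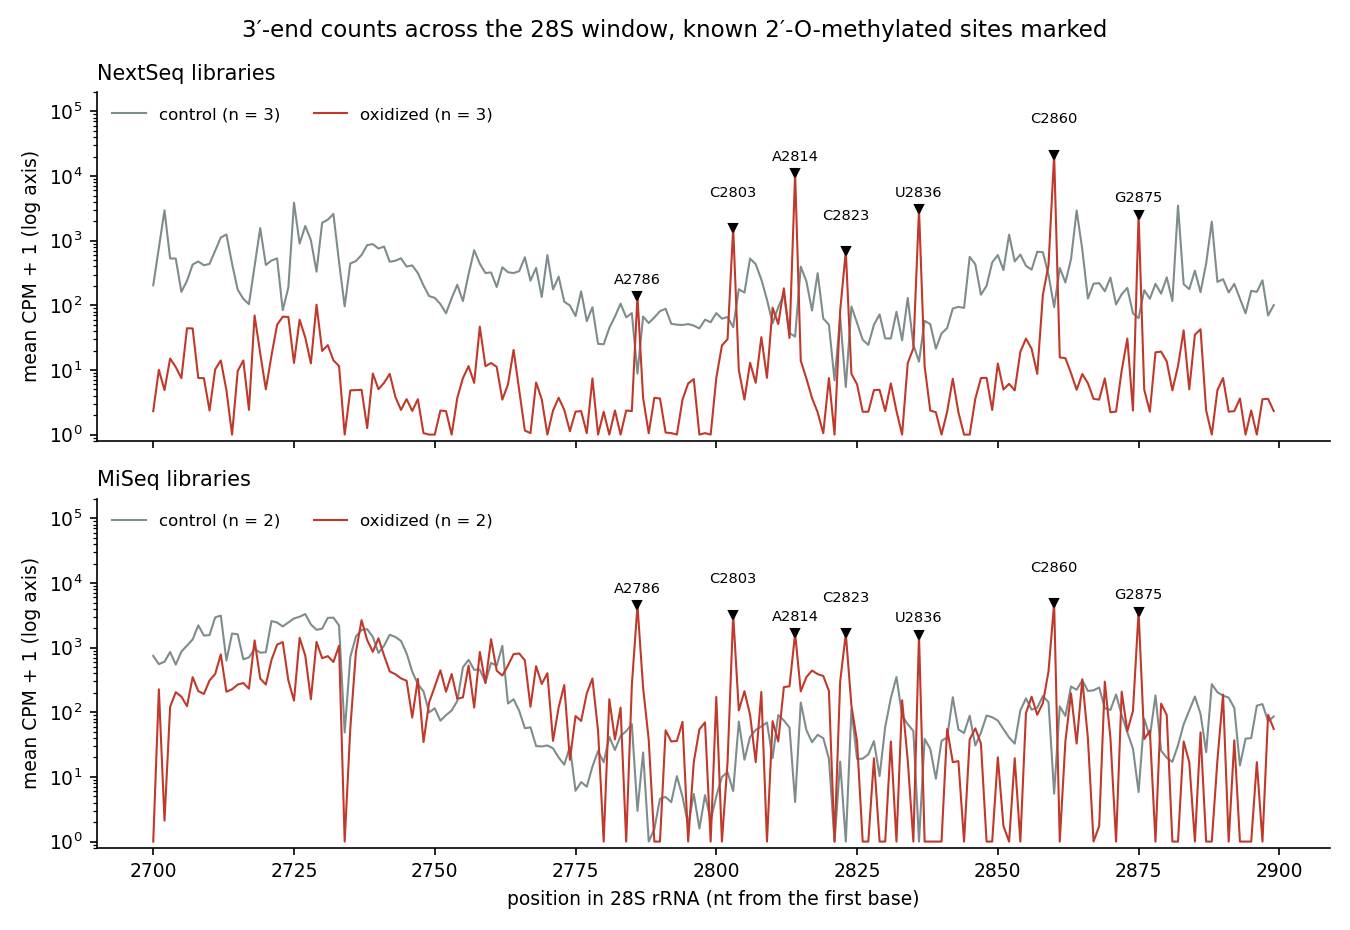
Mean CPM plus 1 (log axis) at each position of 28S from 2700 to 2899 in oxidized and control libraries, NextSeq above and MiSeq below, with the known sites marked by triangles at their oxidized mean. At each of the 7 sites the oxidized mean lies above the control mean of the same position in both panels, and before A2786 the median position had 262 and 299 CPM in the oxidized MiSeq libraries against 646 and 630 in their controls.

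In the quasi-likelihood test of edgeR, adjusted by Benjamini-Hochberg over every tested position of 18S and 28S, 7 of 7 sites were enriched in the NextSeq libraries. Enriched means a log2 fold change above 7 with an adjusted p under 0.05, which 1.53% of all tested positions reached. The study set this fold threshold by the known sites lowest in its own NextSeq comparison. That known sites pass it is thus not independent support. In the MiSeq libraries 7 of 7 sites were enriched too, against 2.36% of all tested positions. These MiSeq calls were lost with the replicate number as a block, where the median log2 fold change of the sites was 10.38. The median log2 fold change of the 7 sites was 11.17 in the NextSeq and 10.32 in the MiSeq libraries. Over all tested positions it was -2.25 and -4.76. The MiSeq median of the sites was the value at C2860, where a control (102 counts) was below the limit set for low counts. Among the other 59 known sites of 28S, 52 were enriched in the NextSeq libraries (median log2 fold change 10.73) and 43 in the MiSeq libraries (median 9.54). At the study's stricter threshold, an adjusted p under 0.0001, edgeR called 0 of the 7 sites in either experiment. It also called 0 of the 6718 and 6661 tested positions on the NextSeq and the MiSeq, so this count does not set the sites apart. All 7 were higher with an unadjusted p under 0.05. In either direction, 38.8% and 66.6% of all tested positions had such a p on the NextSeq and the MiSeq. DESeq2's Wald test with that threshold called 6 of 7 and 7 of 7, against 1.64% and 2.34% of all positions.

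The scaling bears on these values. With library totals in place of TMM factors, the median over all positions in the NextSeq libraries was -6.26, that of the 7 sites was 7.28, and 4 of 7 sites passed a log2 fold change of 7. The 3 that did not were A2786 (4.14), C2803 (5.13) and G2875 (5.34). The sites are therefore given first as counts in each library, in the order of their guides.

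A2786, the target of HBII-420, had 1640, 1885 and 1872 counts in the oxidized NextSeq libraries and 0, 100 and 1676 in the controls. On the MiSeq it had 6520 and 6643 counts against 100 and 52. It was thus the weakest site of the window in the NextSeq libraries, with 138 ± 14.8 CPM (SD, n = 3), and 32.8-fold higher in the MiSeq libraries, with 4531 ± 531 CPM (n = 2). Among all 106 known sites it ranked 96 by its oxidized NextSeq CPM and 33 by its oxidized MiSeq CPM. The log2 fold change was 8.68 ± 2.47 (SE) in the NextSeq libraries with an adjusted p of 0.0486 by edgeR, at the edge of the threshold. Without control replicate 3 the fitted log2 fold change was 11.42 (adjusted p = 0.0493, edgeR), with control counts of 0 and 100, both below the limit of 150, so that its size was not resolved. The call was lost without control replicate 2 (adjusted p = 0.0910), without oxidized replicate 1, 2 or 3 (0.0790, 0.0813 and 0.0788), with passage in the fit (0.0617) and with the replicate number as a block (0.0577). It was also lost with library totals (adjusted p = 0.133, edgeR), with no filter on low counts (0.0502) and with 28S fitted alone (0.0508). DESeq2 gave no p-value for this site in the NextSeq libraries. The MiSeq log2 fold change was 11.39 ± 0.45, with an adjusted p of 0.00651 by edgeR. Both MiSeq controls (100 and 52 counts) were below the limit of 150, so that this size was not resolved either.

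C2803, the target of U55, had 18125, 19961 and 23827 counts in the oxidized NextSeq libraries and 3268, 2875 and 4084 in the controls. The MiSeq libraries had 4570 and 4816 against 152 and 202. Its control CPM varied less over the NextSeq replicates than that of the other 6 sites, with a coefficient of variation of 20.7%. The log2 fold change was 9.11 ± 0.68 in the NextSeq libraries, with an adjusted p of 0.00119 by edgeR, and 9.60 ± 0.54 in the MiSeq libraries. Without control replicate 3 the NextSeq value was 8.93.

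A2814, the upstream target of U95, had 137104, 145706 and 150544 counts in the oxidized NextSeq libraries and 404, 613 and 6215 in the controls. The MiSeq libraries had 3229 and 1714 against 200 and 50. Control replicate 3 was the highest control there, and the lowest oxidized library was still 125.8-fold above it in CPM. The log2 fold change was 12.88 ± 1.31 in the NextSeq libraries (adjusted p = 0.00402, edgeR), 14.36 there without control replicate 3, and 9.28 ± 0.93 in the MiSeq libraries. The MiSeq control at 50 counts was below the limit of 150. C2823, the downstream target of U95, had 9110, 8255 and 9760 counts in the oxidized NextSeq libraries and 452, 254 and 300 in the controls. In the MiSeq libraries it had 2630 and 2228 counts against 0 in both controls. In CPM it varied least of the 7 sites between oxidized libraries, with a coefficient of variation of 3.0% on the NextSeq and 1.30% on the MiSeq. The log2 fold change on the NextSeq was 11.17 ± 0.93 (adjusted p = 0.00169, edgeR), and 10.85 without control replicate 3. On the MiSeq, oxidized CPM was at least 398-fold higher than in the controls, taken at the limit of 150 counts per library.

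U2836, the target of U34, had 36914, 40753 and 42335 counts in the oxidized NextSeq libraries and 50, 152 and 2630 in the controls. In the MiSeq libraries it had 2833 and 1828 against 0 in both controls, at least 378-fold higher at the same limit. The log2 fold change on the NextSeq was 12.46 ± 1.79 (adjusted p = 0.0220, edgeR), with control replicate 3 again the highest control, and 14.85 without that library, where 1 of the 2 controls left (50 counts) was below the limit of 150.

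C2860, the upstream target of U50, was the highest site of the window in all 5 oxidized libraries. It had 252877, 271678 and 318340 counts in the oxidized NextSeq libraries and 9135, 10535 and 1714 in the controls. The MiSeq libraries had 7129 and 7136 against 250 and 102. Here control replicate 3 was the lowest control, not the highest. The log2 fold change was 11.57 ± 1.25 (adjusted p = 0.00514, edgeR) on the NextSeq, 11.03 there without control replicate 3, and 10.32 ± 0.58 on the MiSeq. The MiSeq control at 102 counts was below the limit set for low counts. G2875, the downstream target of U50, had 29142, 33666 and 35805 counts in the oxidized NextSeq libraries and 821, 1255 and 12098 in the controls. The MiSeq libraries had 6212 and 4374 against 204 and 154. Its log2 fold change was 9.77 ± 1.20 (adjusted p = 0.01003, edgeR) on the NextSeq, 11.19 there without control replicate 3, and 9.79 ± 0.33 on the MiSeq.

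**Figure D2:**
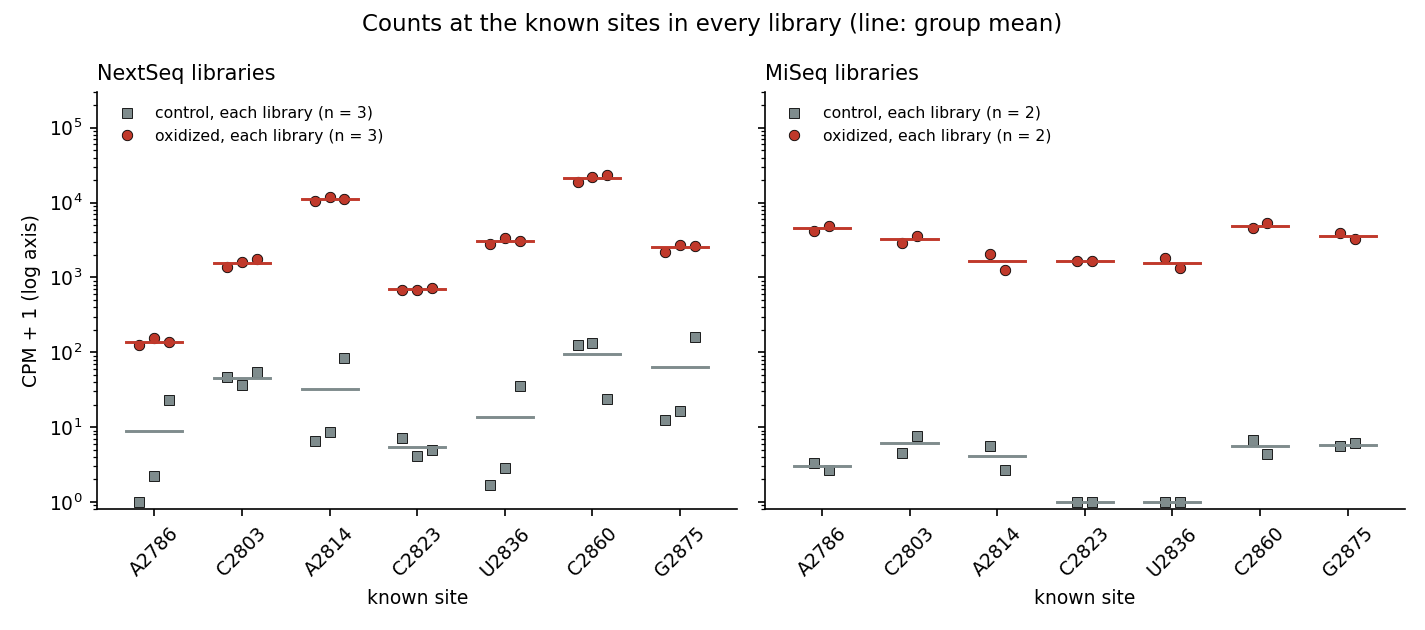
CPM plus 1 (log axis) at each of the 7 known sites, with 1 point per library and a line at the group mean, NextSeq on the left and MiSeq on the right. Oxidized points lie above control points at every site, and the oxidized points of A2786 are lowest of the 7 sites on the NextSeq but among the highest on the MiSeq.

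The order of the sites differed between the experiments. In each of the 3 oxidized NextSeq libraries it was C2860, A2814, U2836, G2875, C2803, C2823 and A2786, from highest to lowest. In both oxidized MiSeq libraries C2860 came first and A2786 second, while C2803 and G2875 changed places between replicates. A2814, C2823 and U2836 took the last 3 places there, with 1662 ± 560, 1661 ± 21.6 and 1578 ± 322 CPM (n = 2 each), so that their order lay within the spread. The method ligates different ends with different efficiency, so the order of counts is not an order of methylation. The range over the 7 sites was 138 to 21483 CPM on the NextSeq and 1578 to 4908 CPM on the MiSeq.

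As shares of the counts at the 7 sites, C2860 held 53.0% ± 1.47 (SD, n = 3) on the NextSeq and 23.2% ± 2.34 (n = 2) on the MiSeq. A2814 held 27.3% ± 1.31 and 7.86% ± 2.68. A2786 held 0.340% ± 0.0200 and 21.4% ± 2.43. The libraries of the 2 experiments did not overlap at 6 of the 7 sites (exact permutation test of 3 against 2 libraries, two-sided, p = 0.2 each, the smallest it allows, and 0.233 adjusted over the 7 sites). Of all 106 known sites, taken as shares of the counts at known sites, 78.3% did not overlap, so 6 of 7 is near that background. At U2836 the share was 7.56% ± 0.274 and 7.46% ± 1.55 (p = 1, exact). The sequencer, the passage and the pilot state of the libraries changed together here and cannot be told apart.

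The ratio of sites with the same guide differed between the experiments, as it did for most pairs of sites. For U95, A2814 over C2823 was 15.05, 17.7 and 15.4 in the oxidized NextSeq libraries and 1.23 and 0.769 in the oxidized MiSeq libraries. For U50, C2860 over G2875 was 8.68, 8.07 and 8.89 on the NextSeq and 1.15 and 1.63 on the MiSeq. The log2 ratios differed by 4.04 for U95 and by 2.64 for U50 (exact permutation test, two-sided, p = 0.2 for each, the smallest that 3 against 2 libraries allow). Of the 19 pairs with different guides, 18 had ratios that did not overlap between the experiments, with a median difference of 3.17 (0.23 to 7.81) on the log2 scale in either direction. Within an oxidized library the targets of 1 snoRNA were up to 17.7-fold apart in counts.

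The test of whether the oxidation effect differed between the experiments, the interaction in an edgeR fit of all 10 libraries, called 1 of the 7 sites. Over all positions this test called 3.65% with the higher log2 fold change on the NextSeq and 4.55% with the higher on the MiSeq. A higher value can also mean a position that was less lowered. The site was C2823, where both MiSeq controls were at 0, so that its fitted value depends on how a 0 is handled. With counts divided by 50 and rounded it was not called (adjusted p = 0.375, edgeR). At A2814 the interaction was 3.30 ± 1.19 on the log2 scale (adjusted p = 0.122, edgeR), and its direction turned with library totals. Without NextSeq control replicate 3 the interaction there was 4.58 (adjusted p = 0.00861, edgeR). At U2836 the call likewise depended on that library (adjusted p = 0.0965 with it and 0.0357 without it, edgeR). Both MiSeq controls were again at 0 there. The NextSeq controls left in these fits differed little beyond sampling, so both smaller p-values rest on little spread between controls.

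Outside the known sites, the NextSeq and MiSeq libraries differed in what remained after oxidation. On the NextSeq, the other 193 positions held 5.92% to 6.35% of the window's counts after oxidation. On the MiSeq they held 67.8% and 68.8%, and most of that lay before A2786. The 86 positions before A2786 held 56.7% and 56.0% of the window's counts in the oxidized MiSeq libraries and 2.19%, 2.30% and 2.26% in the oxidized NextSeq libraries. In the controls the same 86 positions held 92.3% and 89.0% on the MiSeq and 57.5%, 57.7% and 66.2% on the NextSeq. The median position of that stretch had 262 and 299 CPM in the oxidized MiSeq libraries and lay below the limit of 150 counts, which equals 11.3, 12.2 and 10.95 CPM, in the oxidized NextSeq libraries.

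**Figure D3:**
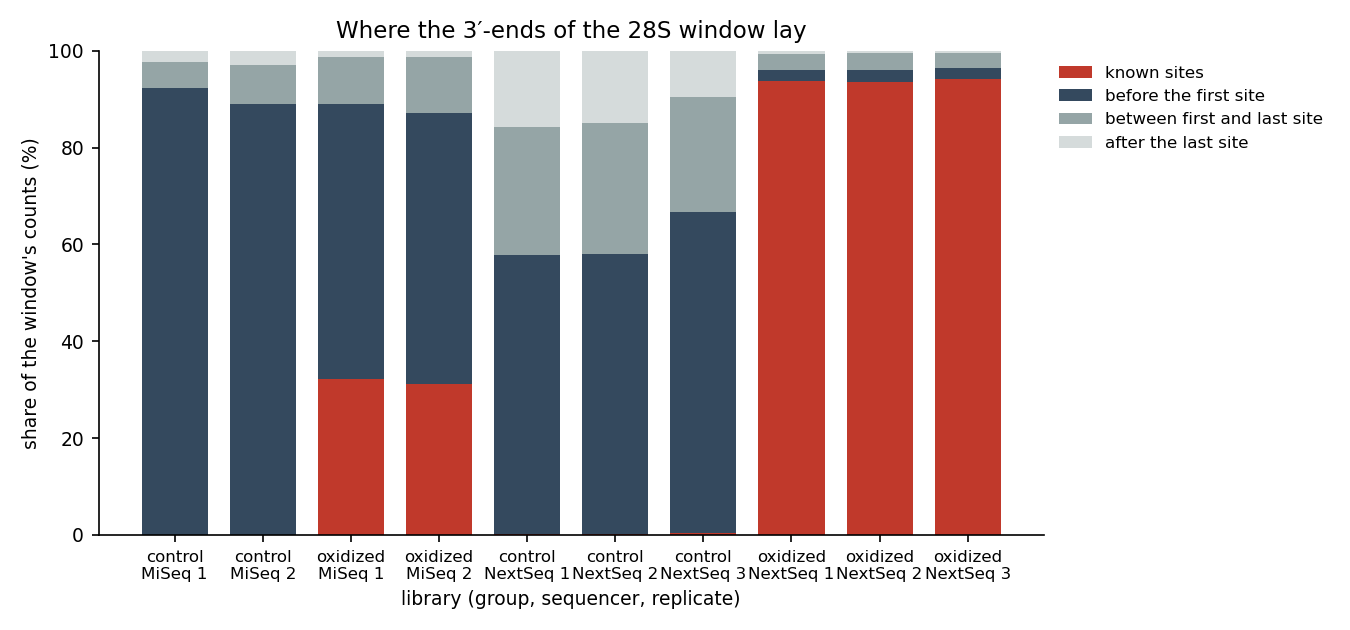
Share of the window's counts in percent (bars from 0 to 100) that lay at the 7 known sites, before the first site, between the first and last site, and after the last site, for each of the 10 libraries. Known sites fill 93.6% to 94.1% of the oxidized NextSeq bars and 31.2% to 32.2% of the oxidized MiSeq bars, where the stretch before the first site fills most of the rest.

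Against the rest of 18S and 28S, the window's known-site share was lower in 5 of 5 oxidized libraries. Known sites outside the window held 95.2%, 94.8% and 95.1% of the counts there in the oxidized NextSeq libraries and 61.1% and 61.3% in the oxidized MiSeq libraries. The window minus the rest was -1.48, -1.18 and -0.98 percentage points in the NextSeq libraries and -28.9 and -30.1 in the MiSeq libraries. An exact sign-flip permutation test over the 5 libraries gave p = 0.0625 (two-sided), the smallest it allows. This test pools 2 experiments whose differences were of unlike size. It does not measure whether the window is unusual among stretches of its length. The 400 positions just upstream, 2300 to 2699, also hold 7 known sites. There the known-site share was 97.1% to 97.6% in the oxidized NextSeq and 57.3% and 59.5% in the oxidized MiSeq libraries. The densest cluster, 16 known sites in positions 3660 to 3899, had 91.5% to 92.8% and 77.6% and 77.7%. The window's 32.2% and 31.2% on the MiSeq were the lowest of these 3 stretches, while its NextSeq values lay between the other two.

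The window as a whole took 3.91%, 4.53% and 4.52% of all counts in the oxidized NextSeq libraries, below the 6.70%, 6.66% and 8.90% of the controls (exact permutation p = 0.1, the smallest possible). On the MiSeq it took 6.55% and 6.81% after oxidation and 8.95% and 8.80% in the controls (p = 0.333, exact, the smallest possible). Counted only over positions outside known sites, the MiSeq difference turned round, with 10.9% and 11.5% after oxidation against 8.96% and 8.82%. On the NextSeq that share was still lower after oxidation, at 5.06% to 5.51%.

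Among the other 193 positions, 8 were called higher and 32 lower in the oxidized NextSeq libraries by edgeR (adjusted p under 0.05), where 3.02% and 18.8% of all tested positions were. With library totals in place of TMM factors these counts were 0 higher and 126 lower. They were 0 and 4 with control replicates 1 and 2 and oxidized replicates 2 and 3 summed. Without control replicate 3, where the controls left differed little beyond sampling, 26 were called higher. Without control replicate 1 or 2, 1 was called higher. The number called lower was 4 without control replicate 1, 7 without control replicate 2 and 44 without control replicate 3. The 8 positions were G2723, C2801, G2810, A2812, C2813, G2822, A2835 and C2859. Of these, 7 lay within 4 nt on the 5′ side of a known site and 0 within 4 nt on the 3′ side, a distance chosen after the values were seen. Such 5′ places are 28 of the 193 positions. Of the 44 positions called higher on the MiSeq, 9 lay within 4 nt on the 5′ side and 7 on the 3′ side.

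C2859, just before C2860, was the highest of them, with 4577, 6131 and 5549 counts after oxidation and 17733, 17831 and 32110 in the controls. Its log2 fold change was 4.52 ± 0.60 on the TMM scale (adjusted p = 0.0146, edgeR), and 0.49 with library totals. G2822, just before C2823, had 865, 1068 and 1264 counts against 1267, 1204 and 12281, and a log2 fold change of 4.73 ± 0.9996, or 0.33 with library totals. G2810 and A2812, 4 and 2 nt before A2814, had log2 fold changes of 4.75 ± 0.72 and 4.30 ± 0.63, or 0.81 and 0.29 with library totals, where none of these 4 positions was called (adjusted p = 0.293 to 0.784, edgeR). A2835, just before U2836, had 4.29 ± 1.20 at an adjusted p of 0.0467 by edgeR, and its direction turned with library totals (-0.19). Without control replicate 3 the log2 fold changes were 4.48 at C2859, 5.97 at G2822, 4.53 at G2810, 4.198 at A2812 and 6.12 at A2835. With control replicates 1 and 2 and oxidized replicates 2 and 3 summed, these positions had log2 fold changes of 4.02 to 4.93. Their calls were then lost (adjusted p = 0.14 to 0.16, edgeR). None of the other 193 positions passed a log2 fold change of 7 on the NextSeq. The highest oxidized NextSeq levels among them were those of C2859 (417 CPM), A2812 (182 CPM) and G2858 (144 CPM).

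Beside each site, the oxidized NextSeq libraries held little. Summed over the 7 sites, the position on the 5′ side held 1.32%, 1.64% and 1.32% of the counts at the sites, and the position on the 3′ side 0.117%, 0.175% and 0.157%. C2859 held most of the 5′ counts, and without C2860 the 5′ neighbours of the other 6 sites held 0.790%, 0.974% and 0.805% and the 3′ neighbours 0.159%, 0.244% and 0.324%. As a median over the 7 sites the 5′ neighbour held 1.0006% and the 3′ neighbour 0.337%. The highest mean over the 3 libraries was at G2822, with 11.8% of the count at C2823 (9.495%, 12.9% and 12.95% in replicates 1, 2 and 3). On the MiSeq the 5′ neighbours held 5.80% and 7.01% and the 3′ neighbours 2.93% and 3.85%. The 5′ neighbour exceeded the 3′ neighbour at 5 of 7 sites in each experiment. At the 95 known sites elsewhere with no listed site next to them, it did so at 48 on the NextSeq and 43 on the MiSeq.

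**Figure D4:**
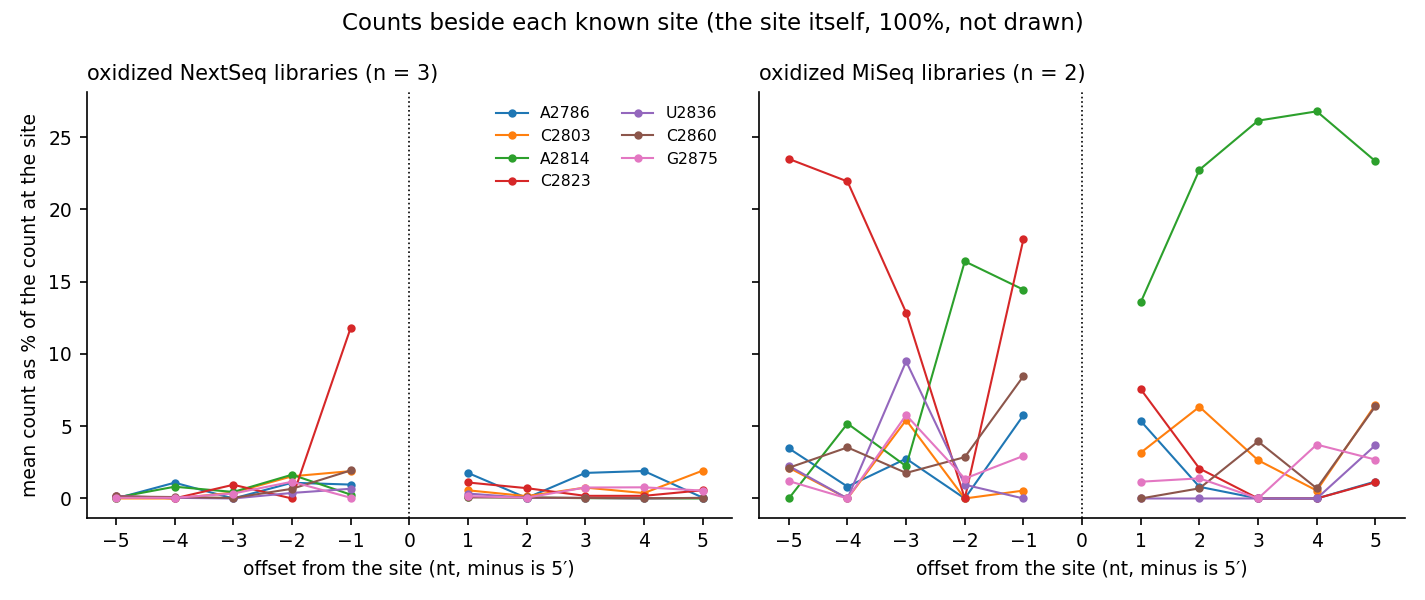
Mean oxidized count at offsets of 1 to 5 nt from each known site, as a percentage of the count at the site, NextSeq on the left and MiSeq on the right, negative offsets lying 5′ of the site. The NextSeq lines lie near 0 apart from 11.8% just before C2823, while on the MiSeq A2814 and C2823 are joined by counts of up to 26.8%.

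On the MiSeq, 44 other positions were called higher and 70 lower by edgeR, against 10.6% and 51.6% of all tested positions. Of the 44, 22 lay before A2786. The 5 with the largest fold changes among them were A2788, U2800, G2777, C2778 and C2773. A2788 was the only one above a log2 fold change of 7, and it rested on 53 counts in each oxidized library against 0 in both controls, below the limit of 150 counts. C2778 had 458 and 504 counts against 460 and 500, a log2 fold change of 4.90 ± 0.42 (adjusted p = 0.00693, edgeR) on the scale of libraries whose totals differed as given above. U2800 had 304 and 202 counts against 56 and 204 (5.73 ± 1.04). G2777 and C2773 had log2 fold changes of 5.22 ± 1.23 and 4.47 ± 0.62. None of the 44 was called when either MiSeq control was left out, and the number called lower was then 1.

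Between the targets of U95 the MiSeq libraries also held counts. The 8 positions from 2815 to 2822 had 3351 and 3243 counts after oxidation, which was 57.2% and 82.3% of the counts at A2814 and C2823 together. In the oxidized NextSeq libraries the same 8 positions had 1168, 1425 and 1774 counts, or 0.799%, 0.926% and 1.11%. By edgeR, 6 of the 7 that could be tested on the MiSeq were called higher there, against 10.6% of all positions, and 1 of 8 on the NextSeq, against 3.02%. The oxidized MiSeq levels were highest, outside the sites, at C2737 (2666 CPM), C2726 (1420 CPM) and U2740 (1396 CPM), all before A2786. By mean CPM C2737 thus exceeded 3 of the 7 known sites there, with 2907 and 4710 counts. In replicate 1 it lay below A2814 (3229 counts), and in replicate 2 it also exceeded G2875 (4374 counts). Its control counts were 90751 and 52062, and it was not called (log2 fold change 0.75, adjusted p = 0.199, edgeR).

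In the controls, the ends gathered at few positions. The 10 highest positions of each library held 50.6% and 50.05% of the window's counts in NextSeq control replicates 1 and 2, but 21.4% in replicate 3 and 32.6% and 31.7% on the MiSeq. The highest NextSeq control means were at G2725, G2882 and G2702, the 3 highest positions of replicates 1 and 2. In replicate 3 the highest were U2739 and C2738, with 192373 and 191267 counts against 3805 and 1263 in replicate 1. G2882, which lies 7 nt after the last known site, had 380718 and 402843 counts in control replicates 1 and 2, 18850 in replicate 3, and 1106 and 1056 in the MiSeq controls. On the MiSeq the highest control means were at U2727 (3314 CPM), C2712 (3138 CPM) and C2726 (3010 CPM).

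The control libraries also show the sites as gaps. The count at each site was divided by the median of the 10 positions on each side, known sites left out. In the MiSeq controls the ratio was below 0.5 at 7 of 7 sites, with medians of 0.0563 and 0.0290, whereas 20.8% and 21.0% of other positions of 18S and 28S were below 0.5. In NextSeq control replicates 1, 2 and 3 it was below 0.5 at 6, 6 and 5 of the 7 sites, with medians of 0.202, 0.121 and 0.431, against 32.3%, 32.2% and 16.6% of other positions. A ratio below 0.5 in all 5 controls was found at 4 of 7 sites (A2786, C2823, C2860 and G2875), at 5 of the other 193 positions of the window and at 2.68% of positions outside it. The list depended on the flank, since with 5 positions on each side it held 5 sites, A2814 added, and with 20 it held 4, with U2836 in place of C2860.

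With 10 positions on each side, C2803 showed no gap in NextSeq control replicates 1 and 2, with ratios of 1.19 and 1.11, and lower values in replicate 3 (0.431) and on the MiSeq (0.275 and 0.383). With 5 positions on each side the NextSeq ratios there were 0.553, 0.399 and 0.416. C2860 had ratios of 0.436 and 0.407 in NextSeq control replicates 1 and 2 and 0.0409 in replicate 3, and of 0.0563 and 0.0241 on the MiSeq. With 20 positions on each side the ratios in replicates 1 and 2 were 1.067 and 1.117. A2814 and U2836 went the other way, with 0.0956 and 0.121 at A2814 and 0.0207 and 0.0622 at U2836 in replicates 1 and 2 against 0.531 and 0.503 in replicate 3. With 10 positions on each side, control replicate 3 had the lowest ratio of the NextSeq controls at the 3 C sites and the highest at the other 4 sites. Those 4 are A2786, A2814, U2836 and G2875. Its share of A and U ends outside the sites was larger and its share of G ends smaller (28.8% against 51.6% in both other controls), as was its share of C ends (21.6% against 30.3% and 30.4%). G2875, a G site, went with the A and U sites. The part of the base shares in these ratios was not tested.

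**Figure D5:**
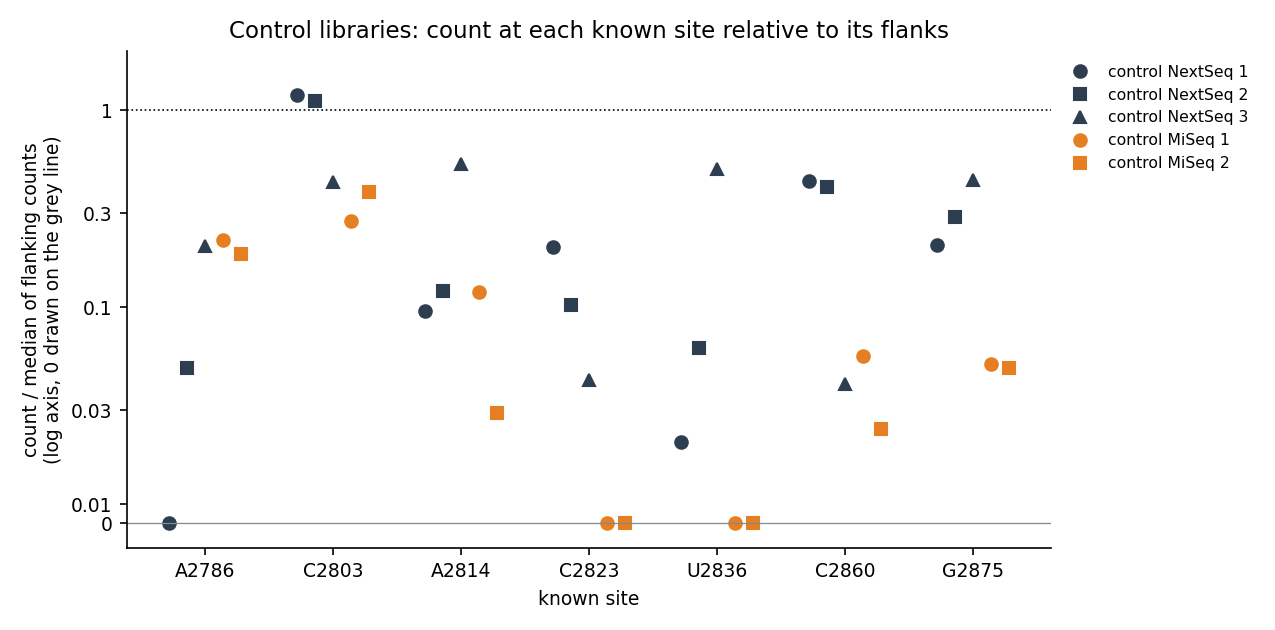
Count at each known site divided by the median count of the 10 flanking positions on each side (log axis, with 0 drawn on a grey line), for the 5 control libraries. MiSeq points lie below 0.5 at all 7 sites, and the NextSeq points of C2803 reach 1.19, above the dotted line that marks no gap.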

How the data were processed

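The deposited files hold, for each library, a count per position of 18S and 28S rRNA, made by the authors from the 3′-ends of sense alignments and not normalized. Per the labels and the study's methods, reads were trimmed with cutadapt 1.12, PCR duplicates were collapsed, and reads were aligned with TopHat2 2.1.1 to hg19 then sorted with SAMtools 0.1.19 and turned into intervals with BEDtools. Multiple placement on both rRNA copies, collapsing and ligation preference can all enter a count. Lines for other features summed to 0 counts. The authors' own comparison tables (DESeq2 fold changes and p-values) were not used. Positions, bases and guides of known sites came from the study's list.

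Counts were tested with edgeR 4.0.16 in R 4.3.3 (TMM factors, positions with at least 1 count, quasi-likelihood test, Benjamini-Hochberg adjustment over 18S and 28S), the NextSeq and MiSeq libraries apart, and an interaction was fitted over all 10. DESeq2 1.42.0 was an alternative. The fits were tested on simulated data first, with counts scaled down by 50 and less spread than the real libraries. The common dispersions of the real fits were 1.46 on the NextSeq, 0.53 on the MiSeq and 1.14 in the interaction. That test thus checks the code and not the error rate of the calls given here. Shares and ratios were compared by exact permutation of libraries, two-sided as 2 times the smaller tail. NextSeq control replicates 1 and 2 differed little beyond sampling in steps of 50 (chi-square per degree of freedom 1.12 over 18S and 28S, 1.09 in the window), as did the oxidized MiSeq replicates (1.05 and 1.42). So did oxidized NextSeq replicates 2 and 3 (1.15 and 1.55, where the pairs with replicate 1 had 11.6 and 11.1 over 18S and 28S but 1.61 and 1.59 in the window), though their passages differ. All were kept as separate libraries, and an alternative summed both NextSeq pairs.

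Named positions are all known sites, up to 5 other positions per experiment with the largest fold change among those called higher, and the 3 with the highest oxidized and control CPM. The members and lists were chosen with earlier results of these data known.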

Additional observations from a re-analysis of the deposited data

Results flagged for a closer look

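At 5 of the positions named above, the oxidation effect differed between the experiments by the interaction test in edgeR (NextSeq minus MiSeq, log2 scale, adjusted p under 0.05). Apart from C2823, a known site, these positions were named for a large fold change in 1 of the experiments, the NextSeq for A2835 and the MiSeq for the others, and each difference lay in the direction which that choice favours, so it is a description and not independent support. At C2823 the fitted difference was -8.12 ± 1.27 (SE, adjusted p = 0.0140), at A2788 it was -19.10 ± 3.30 (adjusted p = 0.0173) and at A2835 it was 17.53 ± 2.89 (adjusted p = 0.0161). At these 3 positions a group was at 0 in the MiSeq libraries, the controls at C2823 and A2788 and the oxidized libraries at A2835, so the fitted sizes are not folds. None of the 3 was called with counts divided by 50 and rounded (adjusted p = 0.375, 0.114 and 0.0803, edgeR). At G2777 the difference was -11.60 ± 2.28 (adjusted p = 0.0213), where the oxidized NextSeq libraries held 2, 0 and 0 counts and the oxidized MiSeq libraries 202 and 356. At C2778 it was -5.44 ± 1.34 (adjusted p = 0.0397), with counts in all 10 libraries, although the oxidized NextSeq counts (102, 50 and 102) were below the limit of 150. The sizes at G2777 and C2778 were thus not resolved either. Leaving out each library in turn gave adjusted p-values of 0.00426 to 0.219 at C2778. They were under 0.05 only without NextSeq control replicate 3, where the NextSeq controls left differed little beyond sampling. At G2777 they were 0.0147 to 0.150, above 0.05 without either MiSeq control and without NextSeq control replicate 1 or 2.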

How the results depend on the processing

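For the 7 known sites, all alternatives kept the direction of the log2 fold change. On the NextSeq, 116 of 132 site values kept their side of the adjusted p threshold, taken without the limit on the fold change. Of the 16 that did not, 7 were the sites at an adjusted p under 0.0001 and 9 were at A2786. On the MiSeq, 91 of 105 did, and the 14 that did not were the 7 sites at that threshold and in the fit with the replicate number as a block.

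The number of known sites enriched on the NextSeq (7) was 4 with library totals, where C2803 and G2875 kept their adjusted p but not a log2 fold change above 7, and 0 at an adjusted p under 0.0001, 6 with DESeq2, with no filter, with 28S alone and with passage in the fit, and 6 to 7 with each library left out. The number of other positions called higher there (8) was 16 with DESeq2, 0 with library totals, 3 with counts divided by 50 and rounded, 0 at an adjusted p under 0.0001, 14 with passage in the fit, 0 with control replicates 1 and 2 and oxidized replicates 2 and 3 summed, and 1 to 26 with each library left out. The number called lower (32) was 59 with DESeq2, 126 with library totals, 1 with counts divided by 50, 0 at the stricter threshold, 4 with replicates summed, and 4 to 44 with each library left out, where it was 4 without control replicate 1 and 7 without control replicate 2.

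On the MiSeq, the counts at an adjusted p under 0.0001 were 0 for known sites enriched (7), other positions enriched (1), other positions higher (44) and lower (70). With counts divided by 50 the 1 other position enriched became 0. With each library left out, the 7 known sites stayed enriched, while other positions enriched ranged from 0 to 2, other positions higher from 0 to 61 and lower from 1 to 96. Without control replicate 1 or 2, where 1 control is assumed to vary like the oxidized libraries, 0 were higher and 1 was lower.

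Over all positions, the interaction called 3.65% with the higher log2 fold change on the NextSeq and 4.55% with the higher on the MiSeq. In the window it called 1 known site and 31 other positions, together 16.0%. In 22 of these 32 a group was at 0, so their fitted sizes depend on how a 0 is handled. The counts of 1 and 31 were 3 and 60 with library totals, 0 and 17 with counts divided by 50, 0 and 0 at an adjusted p under 0.0001, and 0 to 3 and 0 to 42 with each library left out, with 0 and 0 without either MiSeq control. It turned direction at A2814 (-0.63) and C2860 (-2.23) with library totals, and at G2875 with each library left out it ranged from -0.72 to 0.91, above 0 without NextSeq control replicate 3 (0.91) or oxidized replicate 1 (0.06), where it was not called. A2835 turned to -0.19 on the NextSeq with library totals. The window's share on the MiSeq changed from -2.20 to 2.30 percentage points when counted outside the known sites. The cause of these changes was not tested.

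Same-numbered control and oxidized libraries did not deviate together (correlations of 0.029, -0.022 and 0.009 on the NextSeq and -0.007 on the MiSeq), so the numbers were not taken to pair libraries. With the replicate block, 6 known sites were enriched on the NextSeq (A2786 had an adjusted p of 0.0577 by edgeR), 1 other position was higher and 3 lower on the NextSeq, and on the MiSeq 0 known sites, 0 other positions enriched, 0 higher and 0 lower were called.

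With 2 or 3 libraries per group, permutation tests could not reach 0.05. The oxidized MiSeq libraries had the lowest totals, and 150 counts equal 95.6 and 111 CPM there, so that levels below these were not resolved.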

Other observations

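G2821, which was singled out after its values were seen and is not a listed site, had a control gap like that of the neighbouring C2823. Its count relative to its flanks was 0.160, 0.284 and 0.028 in NextSeq control replicates 1, 2 and 3 and 0 in both MiSeq controls. A ratio below 0.5 in all 5 controls was also found at G2716, U2717, G2752 and A2839, and at 2.68% of positions outside the window. G2821 held 0 counts in all 5 oxidized libraries and 406, 710 and 250 in the NextSeq controls. Both MiSeq controls held 0 counts there, so its 0 after oxidation on the MiSeq shows no change. It was 1 of 7 positions outside the known sites at 0 in all 5 oxidized libraries, which are 3.63% of such positions in the window, against 26.9% elsewhere in 18S and 28S. The others were G2734, G2799, G2840, A2844, G2888 and A2894. The control counts were highest at G2888, with 197244, 204143 and 50856 on the NextSeq and 10256 and 9458 on the MiSeq.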
